A study of Saccharomyces cerevisiae with 16 samples.

Results

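The 65 genes described here encode factors that build yeast ribosomes. They are the genes of the deposited table whose standard name is UTP, NOP, RRP, NOC, NSA, ENP, RIO or RLP followed by a number, with PUF6 added, and they make up 65 of the 6692 genes listed. The choice rests on the names and uses no measured value, although it was made with earlier results of these data known. Sorted by what their proteins are known to do, 6 belong to the UTP-A complex, 4 to the UTP-B complex, 19 are other factors of the small subunit (SSU) processome and early 40S assembly, 4 act in late 40S assembly, 4 are core proteins of small nucleolar ribonucleoproteins (snoRNPs), 21 act in 60S assembly and 7 are exosome subunits. All 65 passed the filter on low counts in both assays, and none of their coding regions overlaps another annotated gene.

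Ribosomes are assembled in the nucleolus, where RNA polymerase I transcribes a long precursor of the rRNAs. On its first part the SSU processome is built stepwise, UTP-A first and then UTP-B and the U3 snoRNP, and the precursor is folded, cleaved and chemically modified within it. Separate sets of factors then assemble and export the 60S subunit, while the exosome trims and degrades the excised spacers. The mRNAs for these factors are known in yeast as the ribosome biogenesis (Ribi) regulon, whose transcription follows growth rate and nutrient supply.

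The study asked how the N-terminal domain (NTD) of eIF4B, a translation initiation factor encoded by TIF3 that binds the 40S subunit and stimulates the helicase eIF4A, affects translation with and without urea. It used Riboseq, which sequences the mRNA stretches protected by ribosomes (footprints), and RNAseq of the same extracts. There were 4 groups of 2 cultures each: ∆ntd cells with 3% urea, ∆ntd cells without urea, WT cells with 3% urea and WT cells without urea, giving 16 libraries. Both strains are derivatives of BY4741 (MATa) whose chromosomal TIF3 is deleted, and each carries His6-tagged eIF4B, lacking the NTD in ∆ntd and full length in WT, on a single-copy plasmid with the native promoter and terminator. The plasmid also carries HIS3, LEU2, URA3 and MET17, which the host strain lacks, so no culture has the chromosomal TIF3 locus. Cells were grown in synthetic dextrose (SD) medium at 30 °C to exponential phase.

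Library totals were 3067506 to 17380262 footprints in Riboseq and 1888481 to 5169546 reads in RNAseq, and the lowest count of any member in any library was 38 footprints and 49 reads. TIF3 was present at 1950 to 3288 CPM (counts scaled to library size) in all 8 RNAseq libraries, and a count over the whole gene does not check the deletion of its NTD. The 7 a-specific genes checked lay between 4.11 and 1010 CPM in RNAseq, and the alpha-specific genes STE3 and SAG1 between 1.69 and 27.5 CPM. The Riboseq libraries of ∆ntd cells with urea stood apart: their biological coefficient of variation between the 2 cultures was 0.241, against 0.0408 to 0.056 in the other Riboseq groups and 0.0316 to 0.0568 in RNAseq. All CPM values below are scaled by TMM within each assay, so they are relative to the bulk of the mRNAs in a library. Fewer cells with an mRNA and less mRNA per cell cannot be told apart in these extracts of whole cultures.

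Most of these genes share short promoter elements, which are shown because the rule did not use them. The PAC element (GATGAG, bound in yeast by Dot6 and Tod6) was found on either strand within 250 bases before the start codon in 54 of 65 members (83.1%), against 17.0% of 5987 genes with such a window. The RRPE element (GAAAATTT or GAAAAATTT, bound by Stb3) was found in 48 members (73.8%), against 11.9% of all genes. Both were present in 40 members (61.5%), against 4.64%, and neither in 3 members (RRP42, RRP45 and UTP22), 4.62% against 75.7%. The copies nearest to the start codon lay at a median of -112 for PAC and -124 for RRPE, counted in bases from the start codon, with 40 members of each between -160 and -80. Where both were present, PAC was the farther from the start codon in 5 of 40 members and the spacing had a median of 20 bases. The 30-base windows below, from the RefSeq copy of the R64 genome (sacCer3), run 5′ to 3′ on the gene's strand with 1 copy of PAC and, where shown, 1 of RRPE in capitals, in either orientation, and further copies within a window, some of them overlapping, left in lower case. They belong to members whose TE or RNA changes are described further on.
UTP10 (chrX:217399-217428, minus strand): aaaaAAATTTTCagttagcGATGAGctaga
ENP2 (chrVII:781658-781687, plus strand): attGAAAATTTtgagctaagCTCATCtcat
PUF6 (chrIV:1443494-1443523, minus strand): actGAAAATTTtttttgctggGATGAGatg
NOP7 (chrVII:695270-695299, plus strand): ttaaaGAAAATTTtttgcGATGAGatgaga
UTP20 (chrII:227446-227475, plus strand): tttccGAAAATTTttaccGATGAGcattga
UTP9 (chrVIII:491804-491833, plus strand): aattttGAAAAATTTaacGATGAGatggag
NOP1 (chrIV:427138-427167, plus strand): aaAAATTTTTCaaattggaaagCTCATCtc
NOP58 (chrXV:898461-898490, minus strand): ttttcaacCTCATCGAAAATTTtcagaaaa
RRP12 (chrXVI:529542-529571, plus strand): taattatatcatCTCATCtcatcgcgcaat
NOC4 (chrXVI:821483-821512, minus strand): tattacggttttGATGAGatgagatgagat
In the first 7 of these windows the RRPE copy in capitals stands farther from the start codon than the PAC copy, and in NOP58 the copies in capitals adjoin in the reverse order. The RRP12 and NOC4 windows hold overlapping PAC copies, of which the first is in capitals, and no RRPE copy. Both genes have RRPE farther from the start codon, outside the windows shown, at -214 in RRP12 and -118 in NOC4. NOP1, whose RNA was lower in ∆ntd in both media, carries both elements too. A match is a stretch of letters and not evidence of binding in these cultures.

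In WT without urea, 48 of the 65 members had more RNA per kilobase than the median gene, and the members' median TE exceeded that of all genes in every group but ∆ntd with urea. Per kilobase of coding sequence, their median RNA level was 78.5 CPM in ∆ntd with urea, 70.5 CPM in ∆ntd without urea, 64.2 CPM in WT with urea and 52.9 CPM in WT without urea, while the median over all 5239 genes with a length stayed between 45.0 and 47.9 CPM. The median footprint level per kilobase was 39.6 CPM in ∆ntd with urea, 45.1 CPM in ∆ntd without urea, 36.7 CPM in WT with urea and 33.9 CPM in WT without urea. TE is the footprint CPM of a gene divided by its RNA CPM in the same culture. The median TE of the members was 0.544 in ∆ntd with urea, 0.727 in ∆ntd without urea, 0.611 in WT with urea and 0.74 in WT without urea, against 0.577, 0.574, 0.568 and 0.587 for all genes in the same order of groups. In WT without urea the highest RNA levels per kilobase were those of NOP10 (500 CPM), NOP1 (465 CPM) and NOP56 (409 CPM), all core proteins of snoRNPs, and the lowest those of RRP36 (21 CPM), NOP8 (25.2 CPM) and NOC4 (25.9 CPM). TE in WT without urea was highest for NOP10 (1.79 ± 0.332), RLP24 (1.4 ± 0.383) and NOP12 (1.36 ± 0.0345), and lowest for UTP20 (0.249 ± 0.0106), UTP10 (0.371 ± 0.0128) and UTP21 (0.384 ± 0.0491; SD, n = 2 throughout). NOP10 and RLP24 overlapped in their spread, as did RLP24 and NOP12, and UTP10 and UTP21, while UTP20 lay below both of these.

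**Figure D1:**
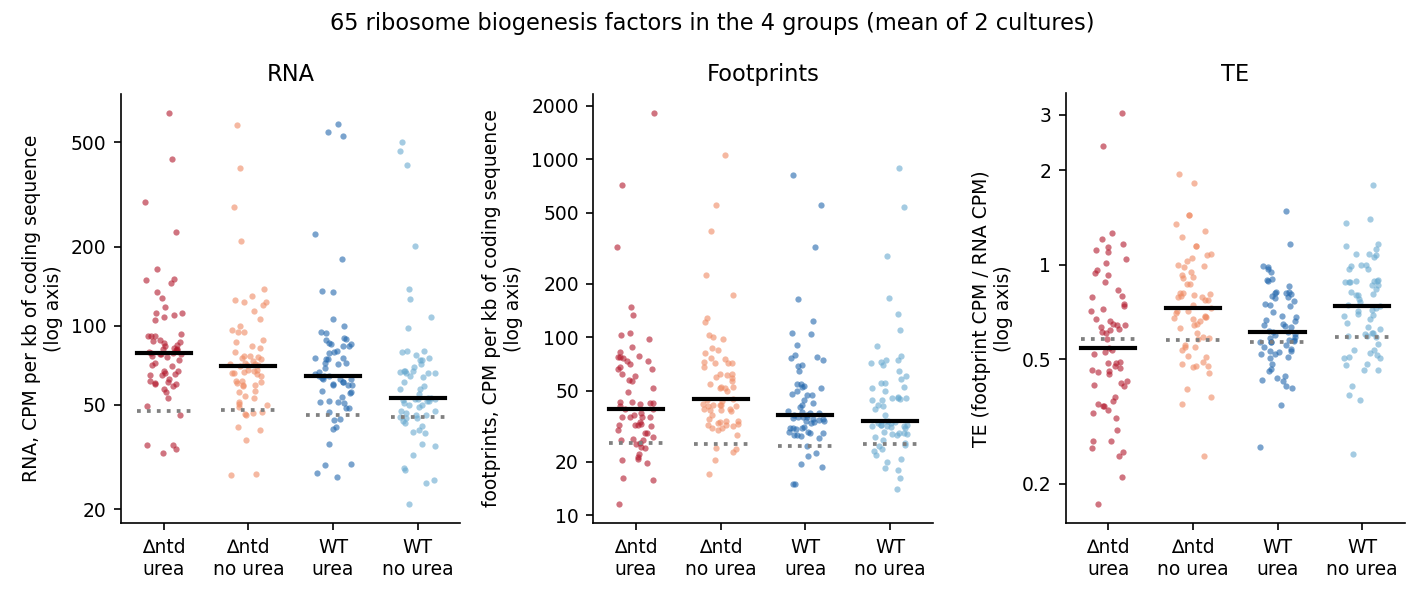
RNA per kilobase of coding sequence, footprints per kilobase (both CPM) and TE of the 65 members in ∆ntd with urea, ∆ntd without urea, WT with urea and WT without urea, on log axes, with 1 point per member (mean of 2 cultures), a black bar at the members' median and a dotted line at the median of all genes. The RNA median is highest in ∆ntd with urea (78.5 CPM per kb) and lowest in WT without urea (52.9 CPM per kb), and the TE median is below that of all genes only in ∆ntd with urea (0.544 against 0.577).

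RNA of most members was higher in sign with urea in both strains and higher in ∆ntd in both media. In WT, 30 members rose with urea and 0 fell (edgeR's quasi-likelihood test, adjusted p under 0.05), against 16.1% of all genes called up and 12.4% called down. Their median log2 change was 0.26, with 61 of 65 positive, beside a median of 0.00 over 5486 genes. In ∆ntd, 17 members rose with urea and NOP13 fell, against 13.4% and 12.8% of all genes, with a median of 0.19. With library totals in place of TMM these counts were 14 and 1 in WT, and 9 and 2 in ∆ntd. Here and below, the shares of all genes called come from the edgeR fit of all 4 groups and all cultures with TMM. The members called up with urea in both strains numbered 11, a count that was not made over all genes. The split between both cultures of one medium and both of the other was as one-sided: 51 members lay wholly above and 1 wholly below in WT (32.6% and 30.5% of all genes), and 41 and 5 in ∆ntd (30.2% and 30.6%).

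Between the strains, 36 members had higher RNA in ∆ntd than in WT without urea and 1, NOP1, lower, against 17.5% and 19.3% of all genes, with a median log2 change of 0.31. With urea, 27 were higher and 3 (NOP1, NOP56 and RRP5) lower, against 21.5% and 22.5% of all genes, with a median of 0.24. Both cultures lay wholly above in 52 members and wholly below in 2 without urea (34.5% and 32.5% of all genes), and in 39 and 3 with urea (35.7% and 34.7%). A total of 22 members were higher in ∆ntd in both media, a count that was not made over all genes. Scaling by library totals shifted the median of all genes by 0.31 without urea and 0.35 with urea, and the members' medians above it were then 0.29 and 0.21. Under that scaling 61 members were called up and 1 down without urea, and 59 up and 1 down with urea. The share of all RNAseq counts taken by the members is itself a scaling by library totals and carries the shift given above. It was 1.119 ± 0.0354% in ∆ntd with urea, 1.04 ± 0.0269% in ∆ntd without urea, 0.839 ± 0.0198% in WT with urea and 0.745 ± 0.0099% in WT without urea (SD, n = 2 each).

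Each of these RNA comparisons was refitted 8 times with 1 culture left out. In all 8 fits the urea response of WT kept 11 of the 30 calls, namely ENP2, NOP1, NOP56, NOP9, PUF6, RRP12, RRP5, UTP10, UTP15, UTP20 and UTP9, and the other 19 were each lost without at least 1 of the 4 WT cultures. The lowest count, 19, came without WT culture 1 without urea. The urea response of ∆ntd kept 6 of 17 (ENP1, PUF6, RRP42, RRP6, UTP10 and UTP9), and 11 members were called in all without ∆ntd culture 1 without urea. The strain difference without urea kept 19 of the 36 rises and the fall of NOP1, and that with urea kept 11 of the 27 rises and all 3 falls. The calls lost were lost without at least 1 of the cultures compared.

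**Figure D2:**
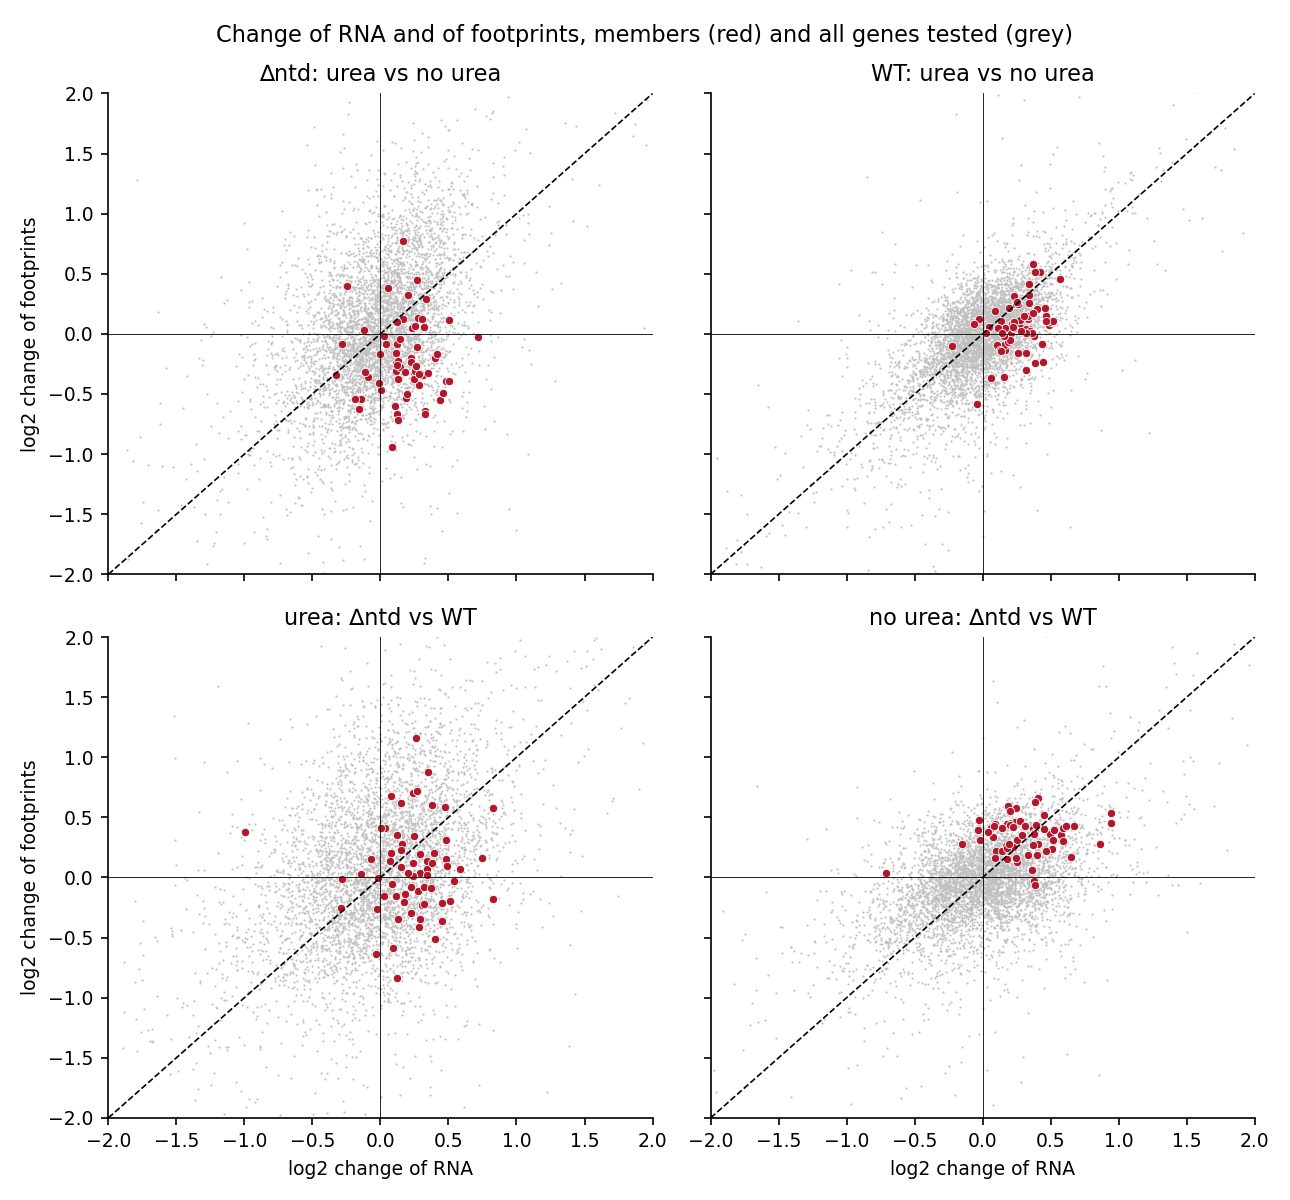
Log2 change in RNA (x axis) against log2 change in footprints (y axis) for urea against no urea in ∆ntd, urea against no urea in WT, ∆ntd against WT with urea and ∆ntd against WT without urea, with the 65 members in red, all 5251 genes tested for TE in grey and equal change on the dashed line; 39 to 133 genes per panel lie beyond 2 on an axis and are not drawn. With urea in ∆ntd, 41 of the 65 members have RNA up and footprints down in sign, whereas in ∆ntd against WT without urea 58 of 65 are positive on both axes. Of all genes tested in each assay, 49.7% are positive in RNA and 50.6% in footprints in the first comparison. In the second, 52.4% and 48.4% are positive, and the joint signs were not counted over all genes.

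Footprints in ∆ntd against WT without urea lay above in both ∆ntd cultures for 60 of 65 members and below for 0, against 31.9% and 36.0% of all genes. The median log2 change of footprints was 0.37 beside -0.01 over 5286 genes. Of the members, 10 passed edgeR's test as rises in footprints (ENP2, NOC4, NOP15, NOP4, NOP56, PUF6, RIO1, RRP4, UTP10 and UTP4) and 0 as falls, against 3.67% and 5.54% of all genes. None of the 10 was called without any 1 of the 4 cultures compared, and 51 were called without either ∆ntd culture with urea, whose spread the test otherwise pools. With only the groups compared in the fit, 56 members were called up and 0 down. The shares of all genes called in that fit and in the fits with a culture left out are not given here.

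Footprint calls for urea in ∆ntd were mostly falls. Footprints of 15 members fell and 1, RRP3, rose in ∆ntd with urea against ∆ntd without urea (11.5% and 16.9% of all genes), with a median log2 change of -0.27 beside 0.01 for all genes, and 41 members lay wholly below and 5 wholly above (31.4% and 34.0%). In WT, 2 members rose with urea (ENP2 and UTP10) and 0 fell, against 4.73% and 4.48% of all genes, with a median of 0.06, or 0.07 above that of all genes under library totals. In that comparison 21 members lay wholly above and 9 wholly below (31.2% and 33.2%). In ∆ntd against WT with urea, 8 rose and 5 fell (17.9% and 15.1%), and 18 lay wholly above and 13 wholly below (33.2% and 30.8%). With library totals, which also shift the median of all genes, 3 rose and 10 fell. Without ∆ntd culture 1 with urea, 13 members rose and 32 fell with urea in ∆ntd, and without either ∆ntd culture without urea 0 rose and 1 fell, RRP12, the only one of the 16 calls present in all 8 fits. In WT 12 rose and 4 fell without either ∆ntd culture with urea, and 0 were called without any other single culture. The share of all footprints taken by the members, again a scaling by library totals, was 0.51 ± 0.0141% in ∆ntd with urea, 0.7615 ± 0.0148% in ∆ntd without urea, 0.5925 ± 0.0064% in WT with urea and 0.588 ± 0.0113% in WT without urea (SD, n = 2 each).

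TE sets the footprint change against the RNA change, and its calls for urea in ∆ntd were mostly falls. In ∆ntd with urea against ∆ntd without urea, TE of 22 members fell and that of 1, RRP40, rose, against 4.27% and 7.29% of all genes, with a median log2 change of -0.42 beside 0.04 over 5251 genes. Both cultures lay below in 42 members and above in 2 (25.6% and 29.7%). In ∆ntd against WT with urea, TE of 16 members fell and that of 3 (NOP1, RRP4 and UTP6) rose, against 10.2% and 15.1%, with a median of -0.23 beside 0.03, and 28 lay below and 10 above (27.7% and 32.2%). With library totals, which also shift the median of all genes, the split was 47 down and 1 up. The shares of all genes called under that scaling are not given here. The 13 members with lower TE in both comparisons, which share the ∆ntd cultures with urea, were ENP2, NOC4, NOP14, NOP15, NOP7, PUF6, RRP12, RRP17, RRP6, UTP10, UTP20, UTP8 and UTP9. Genes with lower TE in both were not counted over all genes.

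In WT, urea gave 0 members a TE call in either direction in edgeR and in DESeq2, with 10 at an unadjusted p under 0.05 in edgeR, against 0.019% of all genes called down and 0.114% called up. The median log2 TE change was -0.19 beside -0.02, and 36 members lay wholly below and 4 wholly above (26.8% and 22.6%). Without either ∆ntd culture with urea 4 members fell. In ∆ntd against WT without urea, NOP56 rose and UTP22 fell (3.1% and 3.37% of all genes), with a median of 0.04, 0.06 above that of all genes under library totals, and 21 members lay wholly above and 20 wholly below (29.9% and 31.2%). Neither call was kept with the culture as a block, which pairs the RNAseq and Riboseq library of 1 extract (adjusted p = 0.0523 and 0.0866), and 1 member was then called. Without any 1 of the 6 cultures other than ∆ntd with urea, 0 members were called, and without either of those 8 rose and 4 fell.

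TE calls in the urea comparisons depended on the cultures in the fit. For urea in ∆ntd, 32 members fell without either ∆ntd culture with urea, 11 without any 1 WT culture, 2 without ∆ntd culture 1 without urea and 3 without ∆ntd culture 2 without urea. RRP12 and PUF6 were called in all 8. For ∆ntd against WT with urea, 26 fell without ∆ntd culture 1 with urea, 19 without culture 2, 5 without WT culture 1 with urea and 4 without WT culture 2 with urea, and RRP12, UTP10, UTP20, UTP22 and the rise of NOP1 were called in all 8. When a culture is left out, the spread of its group rests on the other groups. The calls of NOC4, NOP14, NOP4, NOP56, NSA2 and RRP8 for urea in ∆ntd were lost with the culture block (adjusted p = 0.0706, 0.0504, 0.0679, 0.0597, 0.0518 and 0.0576), as were those of NOP14, UTP18, UTP6 and RRP4 for ∆ntd against WT with urea (adjusted p = 0.0523, 0.0987, 0.0704 and 0.0506).

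**Figure D3:**
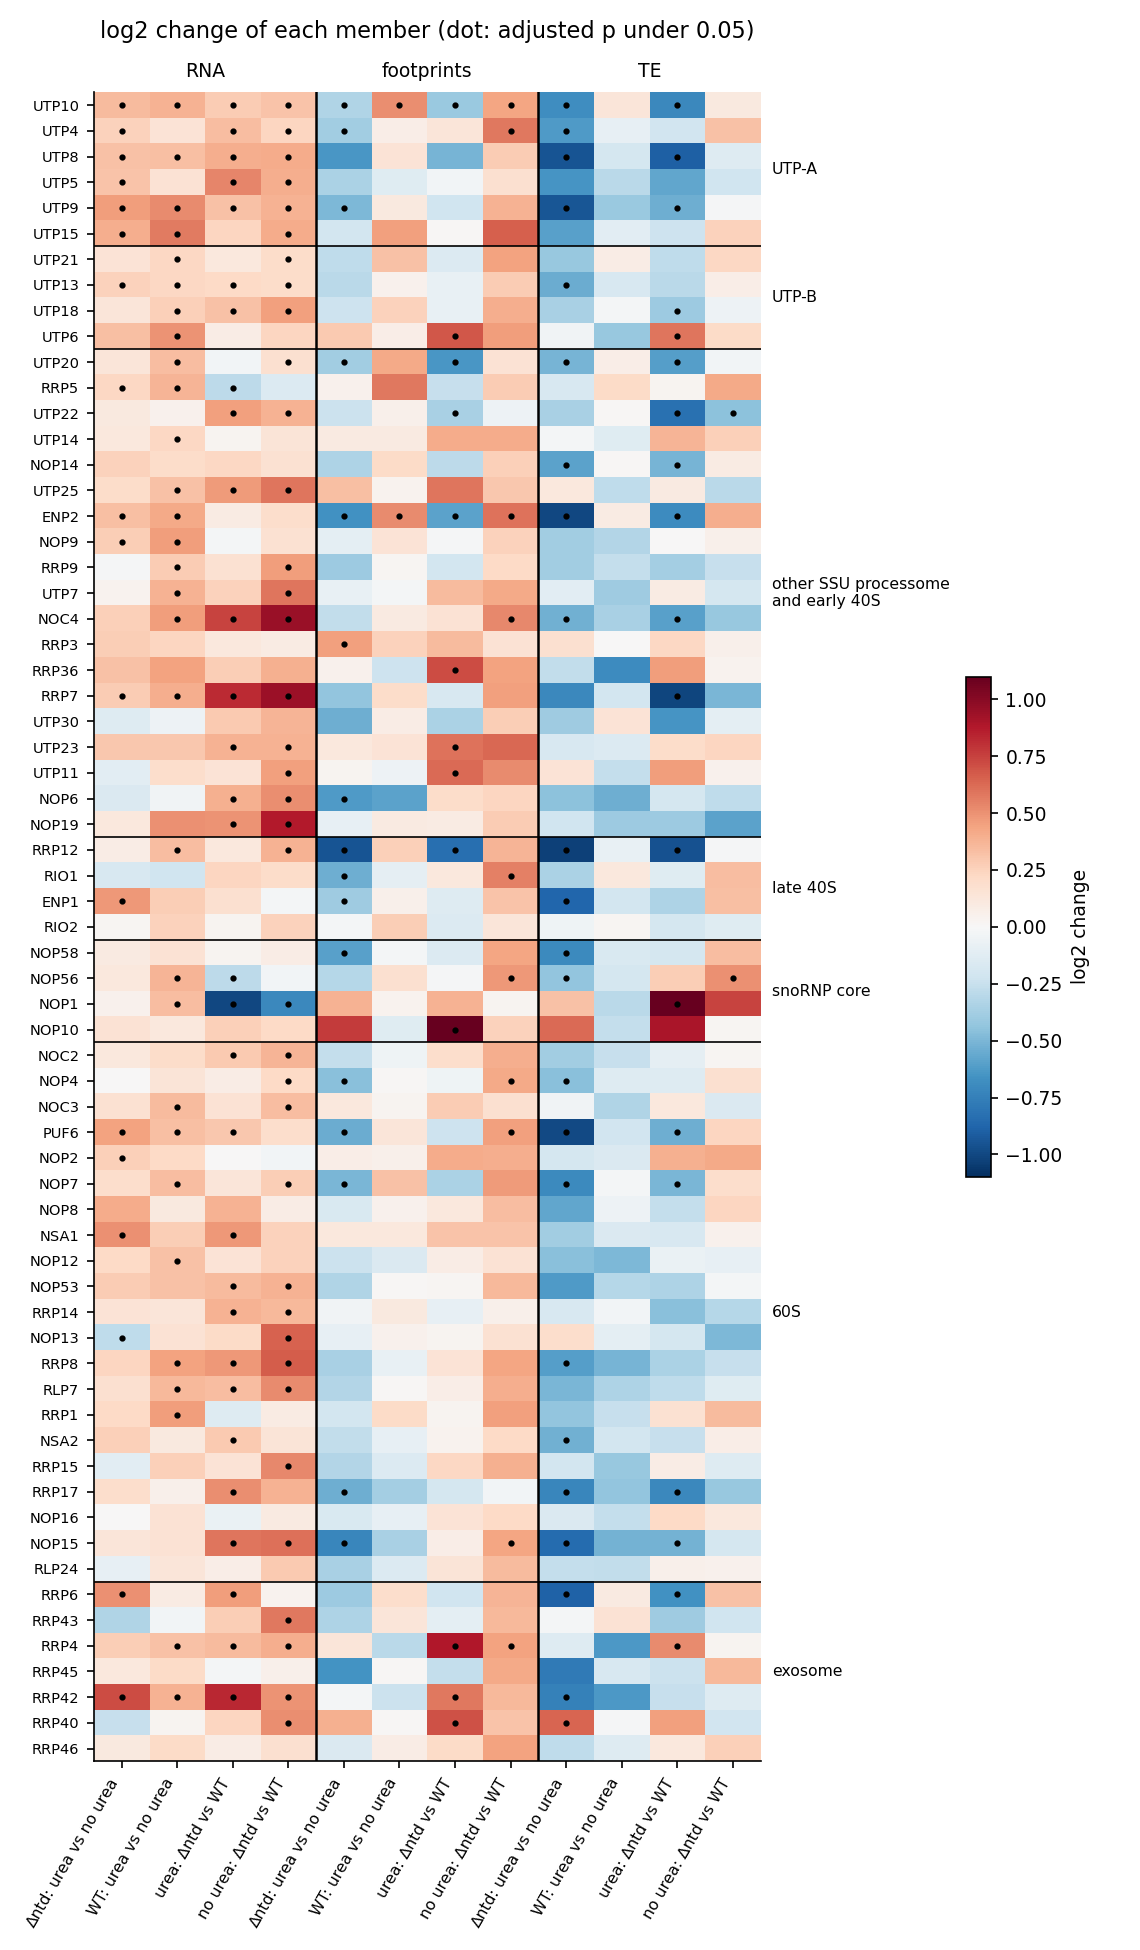
Log2 changes of all 65 members (rows, grouped by role and ordered by length) in RNA, footprints and TE for urea in ∆ntd, urea in WT, ∆ntd against WT with urea and ∆ntd against WT without urea (columns), with red for higher, blue for lower and a dot where the adjusted p is under 0.05. The RNA columns are mostly red, with NOP1 blue in both strain comparisons, and the TE column for urea in ∆ntd is mostly blue, with 22 falls and 1 rise called.

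The urea responses of the 2 strains were compared directly by the interaction term. In footprints, the response of 6 members was lower in ∆ntd than in WT (ENP2, NOP7, PUF6, RRP12, UTP10 and UTP20) and that of 0 higher, against 3.44% and 4.92% of all genes, with a median difference of -0.28 on the log2 scale beside 0.04. In TE it was lower for RRP12 and ENP2 and higher for 0 members, against 0.343% and 0.267%, and with the culture as a block neither passed (adjusted p = 0.0798 and 0.0798). In RNA it was lower for NOP13 and higher for 0 members, against 6.07% and 4.37%. The NOP13 call was lost in all 8 fits with a culture left out. The footprint and TE calls were present only in the fits without 1 of the ∆ntd cultures with urea, where 28 and 25 footprint responses and 21 and 10 TE responses were lower, and 0 were called without any of the other 6 cultures.

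By the naming rule 6 UTP-A subunits are members, and any subunit with another name is not. These 6, which bind the nascent precursor first, moved together in RNA. All 6 rose with urea in ∆ntd (median 0.34) and all 6 were higher in ∆ntd than in WT without urea (median 0.39), with 4 rising with urea in WT and 5 higher in ∆ntd with urea, where 13.4%, 17.5%, 16.1% and 21.5% of all genes were called up in the same order. UTP10 (YJL109C, chrX:212000-217309, minus strand), a very large HEAT-repeat protein, had 525 and 593 CPM of RNA in ∆ntd with urea, 425 and 451 CPM in ∆ntd without urea, 422 and 493 CPM in WT with urea and 347 and 358 CPM in WT without urea. The rise with urea was 0.35 ± 0.08 (SE, adjusted p = 5.48e-04) in ∆ntd and 0.38 ± 0.07 (SE, adjusted p = 1.35e-04) in WT, both in log2 and both present without any 1 culture. Its footprints were 144 and 137 CPM in ∆ntd with urea, 173 and 180 CPM in ∆ntd without urea, 191 and 183 CPM in WT with urea and 126 and 136 CPM in WT without urea. Footprints thus rose with urea in WT (0.51 ± 0.10 SE, adjusted p = 0.0162) and fell in ∆ntd (-0.33 ± 0.10 SE, adjusted p = 0.0381), with no overlap of cultures in either strain, and the difference between the strains was -0.84 ± 0.14 (SE, adjusted p = 0.0211). These 3 calls were lost without any 1 of the 6 cultures other than ∆ntd with urea. TE was 0.274 and 0.231 in ∆ntd with urea, 0.406 and 0.398 in ∆ntd cultures without urea, 0.452 and 0.371 in WT cultures with urea and 0.362 and 0.38 in WT without urea, so that both ∆ntd cultures with urea lay below the other 6.

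UTP9 (YHR196W, chrVIII:491931-493658, plus strand), another UTP-A subunit, had RNA of 215 and 193 CPM in ∆ntd with urea, 142 and 157 CPM in ∆ntd without urea, 170 and 158 CPM in WT with urea and 117 and 111 CPM in WT without urea. Its TE was 0.257 and 0.235 in ∆ntd with urea, 0.474 and 0.477 in ∆ntd cultures without urea, 0.355 and 0.359 in WT cultures with urea and 0.454 and 0.502 in WT without urea, a change with urea of -0.94 ± 0.16 (SE, adjusted p = 0.00339) in ∆ntd. RNA was thus highest and TE lowest in the same 2 cultures. UTP8, a UTP-A subunit also known for nuclear tRNA export, had a TE of 0.336 and 0.213 in ∆ntd with urea, 0.55 and 0.543 in ∆ntd cultures without urea, 0.492 and 0.564 in WT cultures with urea and 0.622 and 0.579 in WT without urea (-0.95 ± 0.26 SE, adjusted p = 0.0332 for urea in ∆ntd). UTP4 (TE -0.62 ± 0.12 SE, adjusted p = 0.00904) fell as well, whereas UTP5 (-0.65, adjusted p = 0.0546) and UTP15 (-0.60, adjusted p = 0.179) did not pass the test. The footprint values of UTP15 in ∆ntd with urea, 75.7 and 40.5 CPM, were the farthest apart of these 6 subunits. All 4 TE falls among the 6 were lost without at least 1 of the ∆ntd cultures without urea.

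The 4 UTP-B subunits among the members, WD-repeat and related proteins that join after UTP-A, all had higher RNA with urea in WT (median log2 change 0.25). Of these 4, 3 were higher in ∆ntd than in WT without urea and 2 with urea, and UTP13 alone rose with urea in ∆ntd. Of all genes 16.1%, 17.5%, 21.5% and 13.4% were called up in the same order, and 4 genes are too few to compare shares. Any subunit of the complex with a name outside the rule was not in these counts. UTP6 (YDR449C, chrIV:1357580-1358902, minus strand) had footprints of 87.8 and 113 CPM in ∆ntd with urea, 78.3 and 85.4 CPM in ∆ntd without urea, 65.4 and 59.7 CPM in WT with urea and 61.7 and 57.5 CPM in WT without urea, a difference between ∆ntd and WT with urea of 0.68 ± 0.14 (SE, adjusted p = 0.00985). That call was lost without either WT culture with urea. TE of UTP13 fell with urea in ∆ntd (-0.55 ± 0.14 SE, adjusted p = 0.0234), a call lost without any 1 of the 6 cultures other than ∆ntd with urea. Footprints of UTP13, UTP18 and UTP21 did not pass the test in any comparison.

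RRP12 (YPL012W, chrXVI:529723-533409, plus strand), a HEAT-repeat protein needed for late maturation and export of both subunits, had falls in footprints and TE in ∆ntd with urea that were called under every setting run. Its RNA was 302 and 297 CPM in ∆ntd with urea, 278 and 288 CPM in ∆ntd without urea, 278 and 274 CPM in WT with urea and 218 and 218 CPM in WT without urea, the last group standing below the other 3. Its footprints were 83.8 and 72.6 CPM in ∆ntd with urea, 154 and 147 CPM in ∆ntd without urea, 141 and 139 CPM in WT with urea and 115 and 118 CPM in WT without urea. The 2 cultures of ∆ntd with urea were below the other 6, by -0.95 ± 0.11 (SE, adjusted p = 0.00116) against ∆ntd without urea and -0.83 ± 0.11 (SE, adjusted p = 0.00112) against WT with urea. TE was 0.278 and 0.244 in ∆ntd with urea, 0.556 and 0.511 in ∆ntd cultures without urea, 0.505 and 0.507 in WT cultures with urea and 0.527 and 0.543 in WT without urea. Its change was -1.03 ± 0.12 (SE, adjusted p = 6.51e-04) for urea in ∆ntd and -0.96 ± 0.12 (SE, adjusted p = 1.03e-04) for ∆ntd against WT with urea, and -0.08 for urea in WT (adjusted p = 0.896). Both TE falls and both footprint falls were called in every one of the 8 fits with a culture left out and under all 7 other settings. The difference between the strains in the urea response was -1.21 ± 0.15 (SE, adjusted p = 0.00829) in footprints and -0.95 ± 0.16 (SE, adjusted p = 0.0286) in TE, and both of these were lost without any 1 of the 6 cultures other than ∆ntd with urea.

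Of the other late 40S factors, ENP1 (YBR247C, chrII:713004-714455, minus strand), a stable component of pre-40S particles, had RNA of 90.5 and 98.1 CPM in ∆ntd with urea and 68.3 and 66.5 CPM in ∆ntd without urea (0.48 ± 0.12 SE, adjusted p = 0.00405), while its footprints were 63.9 and 62 CPM and 78 and 86.9 CPM in the same groups. RNA rose where footprints fell, and the TE change was -0.87 ± 0.17 (SE, adjusted p = 0.00706), lost without either ∆ntd culture without urea. The protein kinase RIO1 had more footprints in ∆ntd than in WT without urea (0.55 ± 0.13 SE, adjusted p = 0.0339) and fewer in ∆ntd with urea than in ∆ntd without urea (-0.54 ± 0.13 SE, adjusted p = 0.0209), with no RNA call in any comparison. Both were lost without either ∆ntd culture without urea, and the first also without any 1 WT culture. Its relative RIO2, also an atypical kinase of pre-40S particles, passed the test in no comparison, with a TE of 0.683 and 0.89 in ∆ntd with urea, 0.807 and 0.813 in ∆ntd cultures without urea, 0.839 and 0.951 in WT cultures with urea and 0.931 and 0.833 in WT without urea.

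Among the 19 other SSU processome and early 40S factors, 10 (52.6%) rose in RNA with urea in WT, where 16.1% of all genes did, and 4 (21.1%) in ∆ntd, where 13.4% did. Without urea 11 (57.9%) were higher in ∆ntd than in WT, beside 17.5% of all genes, and 7 (36.8%) with urea, beside 21.5%, where RRP5 was lower. NOC4 and RRP7 had the largest RNA rises of all members in ∆ntd against WT without urea, and with urea only RRP42 rose by as much as RRP7. NOC4 (YPR144C, chrXVI:819765-821423, minus strand), a partner of NOP14 in 40S assembly, had 93.3 and 106 CPM in ∆ntd with urea, 79.4 and 86.7 CPM in ∆ntd without urea, 56.6 and 61.2 CPM in WT with urea and 43.6 and 42.3 CPM in WT without urea. The strain difference was 0.95 ± 0.12 (SE, adjusted p = 2.57e-07) without urea and 0.74 ± 0.11 (SE, adjusted p = 2.14e-06) with urea, in every left-out fit. RRP7 (YCL031C, chrIII:64675-65568, minus strand), a subunit of the UTP-C complex with UTP22, had RNA of 145 and 123 CPM in ∆ntd with urea, 118 and 102 CPM in ∆ntd without urea, 77.2 and 75.2 CPM in WT with urea and 59.5 and 55.7 CPM in WT without urea (0.94 ± 0.12 (SE, adjusted p = 6.59e-08) without urea and 0.82 ± 0.11 (SE, adjusted p = 1e-07) with urea). Footprints of RRP7 were 36.6 and 20.8 CPM, 40.6 and 38.2 CPM, 36.9 and 28.7 CPM and 26.7 and 31 CPM in the same order of groups and passed the test nowhere, and TE was -1.01 ± 0.29 (SE, adjusted p = 0.0204) in ∆ntd against WT with urea. That TE call was lost without either WT culture with urea.

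UTP22 (YGR090W, chrVII:662358-666071, plus strand), the large scaffold of UTP-C, was the one member with a TE fall called in ∆ntd against WT in both media. RNA was 298 and 305 CPM in ∆ntd with urea, 284 and 272 CPM in ∆ntd without urea, 221 and 220 CPM in WT with urea and 217 and 209 CPM in WT without urea, so all 4 ∆ntd cultures lay above all 4 WT cultures. Footprints were 84.3 and 93.8 CPM in ∆ntd with urea, 108 and 102 CPM in ∆ntd without urea, 108 and 122 CPM in WT with urea and 104 and 115 CPM in WT without urea. TE was 0.283 and 0.308 in ∆ntd with urea, 0.382 and 0.375 in ∆ntd cultures without urea, 0.486 and 0.554 in WT cultures with urea and 0.481 and 0.549 in WT without urea. The strain difference in TE was -0.82 ± 0.13 (SE, adjusted p = 5.38e-04) with urea, called in all 8 left-out fits, and -0.45 ± 0.13 (SE, adjusted p = 0.0469) without urea, which passed in 2 of the 8 and had an adjusted p of 0.0866 with the culture block. UTP22 is also one of the 3 members without PAC or RRPE in the window searched.

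ENP2 (YGR145W, chrVII:781767-783890, plus strand), an SSU processome factor, had RNA of 151 and 173 CPM in ∆ntd with urea, 130 and 127 CPM in ∆ntd without urea, 153 and 149 CPM in WT with urea and 108 and 117 CPM in WT without urea. Its footprints were 43.8 and 44.7 CPM in ∆ntd with urea, 70.1 and 70.3 CPM in ∆ntd without urea, 61.3 and 72.2 CPM in WT with urea and 44.9 and 47.9 CPM in WT without urea. With urea footprints rose in WT (0.52 ± 0.12 SE, adjusted p = 0.0313) and fell in ∆ntd (-0.67 ± 0.11 SE, adjusted p = 0.00661), and the strain difference in response was -1.18 ± 0.16 (SE, adjusted p = 0.0129). The rise in WT and the strain difference were lost without any 1 of the 6 cultures other than ∆ntd with urea, and the fall in ∆ntd without either ∆ntd culture without urea. The TE change was -1.0 ± 0.14 (SE, adjusted p = 0.00186) for urea in ∆ntd, lost only without ∆ntd culture 1 without urea, and -0.69 ± 0.15 (SE, adjusted p = 0.00369) for ∆ntd against WT with urea, lost only without WT culture 2 with urea.

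UTP20 (YBL004W, chrII:227636-235117, plus strand), the longest member and another HEAT-repeat protein of the SSU processome, had a TE of 0.155 and 0.191 in ∆ntd with urea, 0.243 and 0.247 in ∆ntd cultures without urea, 0.258 and 0.266 in WT cultures with urea and 0.257 and 0.242 in WT without urea. Its footprints were 108 and 128 CPM in ∆ntd with urea, 148 and 159 CPM in ∆ntd without urea, 185 and 183 CPM in WT with urea and 138 and 138 CPM in WT without urea, below in both ∆ntd cultures with urea. Against WT with urea the footprint difference was -0.64 ± 0.11 (SE, adjusted p = 0.00427) and the TE difference -0.61 ± 0.13 (SE, adjusted p = 0.00331), both called in all 8 left-out fits. RRP5 (YMR229C, chrXIII:725934-731123, minus strand), which acts in assembly of both subunits, is the third longest member. Its RNA was 786 and 729 CPM in ∆ntd with urea, 641 and 652 CPM in ∆ntd without urea, 981 and 874 CPM in WT with urea and 694 and 742 CPM in WT without urea, and was lower in ∆ntd than in WT with urea (-0.29 ± 0.07 SE, adjusted p = 5.67e-04), a value of 0.03 with library totals. The TE of RRP5 was 0.46 and 0.754 in ∆ntd with urea and 0.545 and 0.63 in WT with urea and passed in no comparison. RRP9, the U3-specific snoRNP protein, rose in RNA with urea in WT (0.28 ± 0.10 SE, adjusted p = 0.0318) and was higher in ∆ntd than in WT without urea (0.46 ± 0.10 SE, adjusted p = 6.01e-04), without a footprint or TE call. The first of these was lost without WT culture 1 without urea and without either WT culture with urea. Footprints of RRP36, UTP11 and UTP23 were higher in ∆ntd than in WT with urea (0.72, 0.62 and 0.60), in each case lost without either WT culture with urea.

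**Figure D4:**
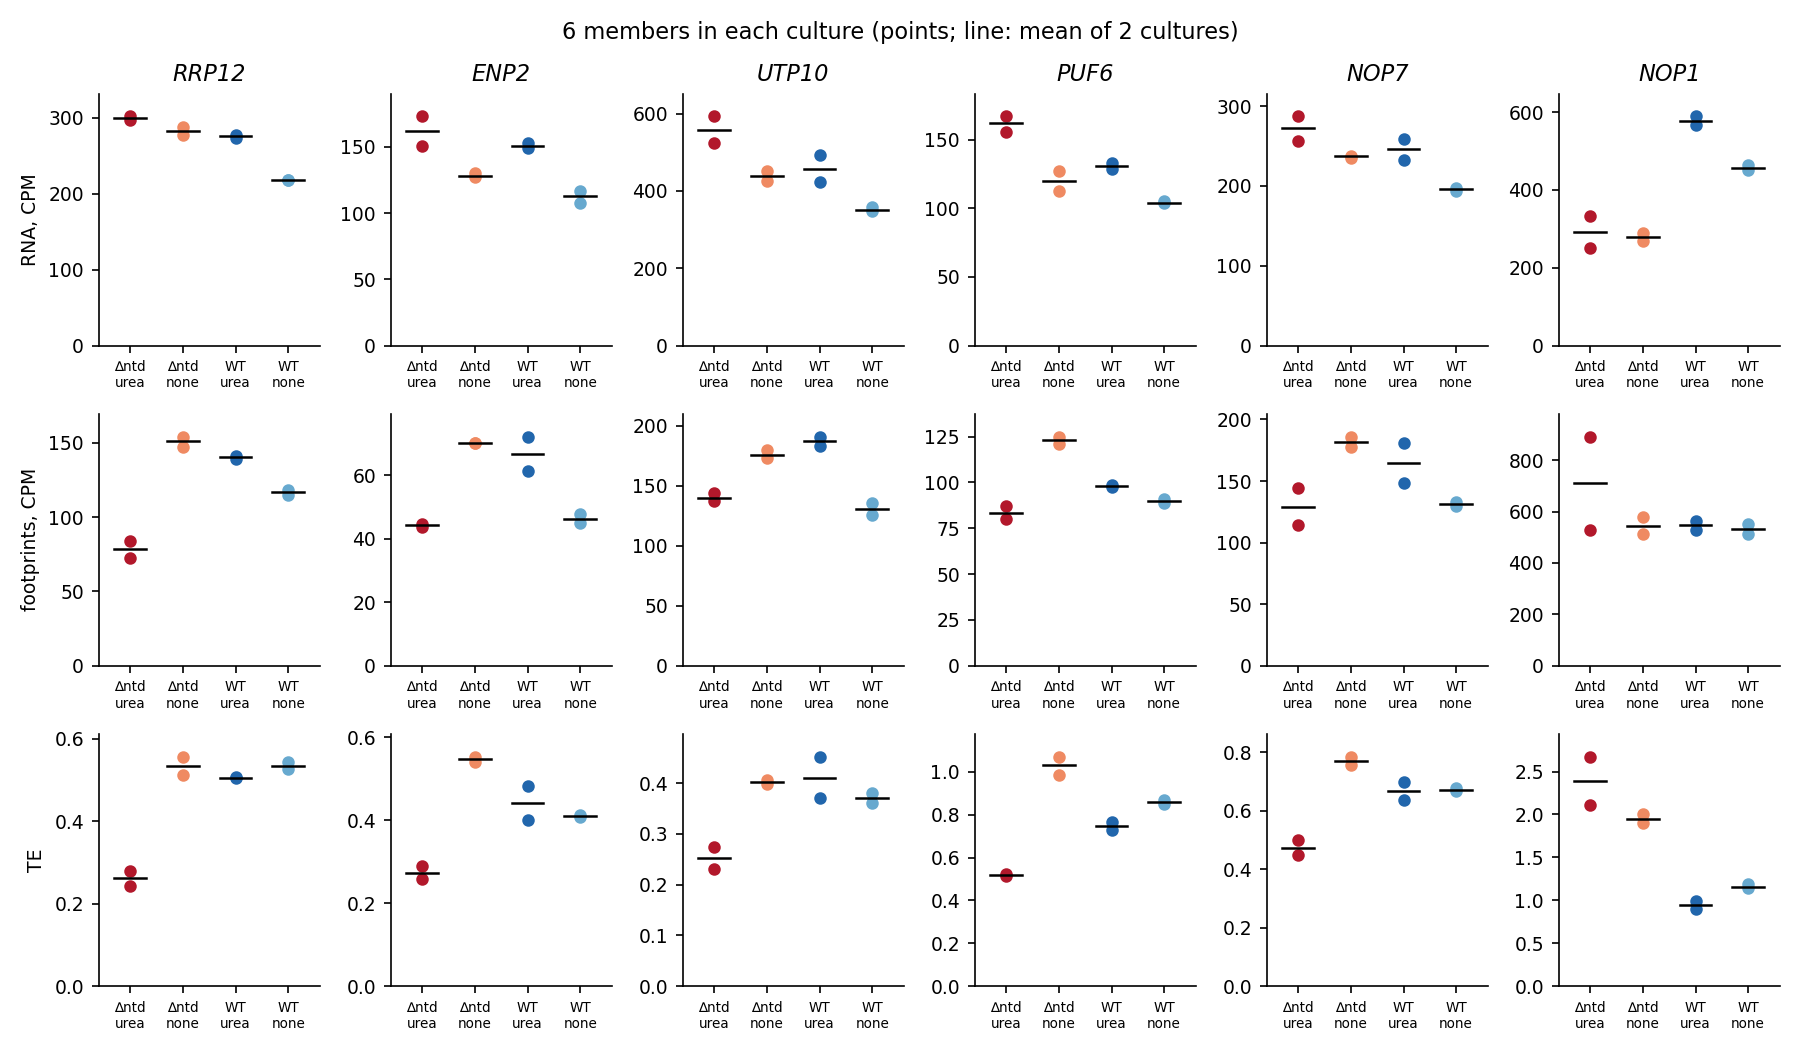
RNA and footprints (both CPM) and TE in each of the 8 cultures (points, with a line at the mean of 2 cultures) for RRP12, ENP2, UTP10, PUF6, NOP7 and NOP1, with the groups from left to right ∆ntd with urea, ∆ntd without urea, WT with urea and WT without urea, and axes from 0. TE of RRP12 and ENP2 is lowest in both ∆ntd cultures with urea (0.244 to 0.29), and TE of NOP1 is higher in the 4 ∆ntd cultures (1.9 to 2.67) than in the 4 WT cultures (0.898 to 1.19).

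Of the 4 core snoRNP proteins among the members, 2 (NOP1 and NOP56) rose in RNA with urea in WT, beside 16.1% of all genes. The same 2 were lower in ∆ntd than in WT with urea, beside 22.5%. TE of NOP56 and NOP58 fell with urea in ∆ntd, beside 4.27% of all genes, and 4 genes are too few to compare shares. Core proteins with names outside the rule, such as GAR1, are among the other genes of the pathway. NOP1 (YDL014W, chrIV:427364-428347, plus strand), yeast fibrillarin and the methyltransferase of box C/D snoRNPs, had RNA of 250 and 334 CPM in ∆ntd with urea, 289 and 269 CPM in ∆ntd without urea, 566 and 589 CPM in WT with urea and 463 and 452 CPM in WT without urea. The 4 ∆ntd cultures lay below the 4 WT cultures, with a strain difference of -0.71 ± 0.08 (SE, adjusted p = 3.03e-08) without urea and -1.0 ± 0.08 (SE, adjusted p = 9.19e-12) with urea, the largest RNA falls of all members. Footprints were 527 and 891 CPM in ∆ntd with urea, 577 and 511 CPM in ∆ntd without urea, 564 and 529 CPM in WT with urea and 550 and 514 CPM in WT without urea, so 7 of the 8 cultures lay between 511 and 577 CPM. TE was 2.11 and 2.67 in ∆ntd with urea, 2 and 1.9 in ∆ntd cultures without urea, 0.995 and 0.898 in WT cultures with urea and 1.19 and 1.14 in WT without urea. The strain difference in TE was 1.35 ± 0.26 (SE, adjusted p = 0.002) with urea, called under every setting run, and 0.74 ± 0.26 (SE, adjusted p = 0.117) without urea.

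NOP56 and NOP58 are the paired scaffold proteins of box C/D snoRNPs. NOP56 (YLR197W, chrXII:546097-547611, plus strand) had 676 and 636 CPM in ∆ntd with urea, 607 and 605 CPM in ∆ntd without urea, 810 and 791 CPM in WT with urea and 593 and 645 CPM in WT without urea, a rise with urea in WT of 0.37 ± 0.06 (SE, adjusted p = 1.87e-05) and a strain difference with urea of -0.29 ± 0.06 (SE, adjusted p = 4.21e-04), which library totals moved to 0.04. NOP58 (YOR310C, chrXV:896825-898360, minus strand) passed the RNA test in no comparison, with 357 and 343 CPM in ∆ntd with urea and 343 and 306 CPM in ∆ntd without urea, while its footprints were 273 and 183 CPM and 334 and 356 CPM in the same groups. The footprint change of NOP58 with urea in ∆ntd was -0.60 ± 0.17 (SE, adjusted p = 0.034) and the TE change -0.70 ± 0.20 (SE, adjusted p = 0.0357), both lost without any 1 of the 6 cultures other than ∆ntd with urea. NOP10 (YHR072W-A, chrVIII:241664-241840, plus strand), a core protein of H/ACA snoRNPs and the shortest member, had footprints of 226 and 418 CPM in ∆ntd with urea, 185 and 191 CPM in ∆ntd without urea, 150 and 138 CPM in WT with urea and 171 and 144 CPM in WT without urea. Its footprint level in ∆ntd exceeded that of WT with urea (1.16 ± 0.26 SE, adjusted p = 0.0109), the largest footprint rise of all members, which was lost without either WT culture with urea, and the 2 ∆ntd cultures with urea were far apart.

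Of the 21 factors of 60S assembly, 7 (33.3%) rose in RNA with urea in WT, beside 16.1% of all genes, and 3 (14.3%) in ∆ntd, near the 13.4% of all genes. Without urea 11 (52.4%) were higher in ∆ntd than in WT, beside 17.5%, and 10 (47.6%) with urea, beside 21.5%. TE of 7 (33.3%) fell with urea in ∆ntd, beside 4.27% of all genes, and of 4 (19%) in ∆ntd against WT with urea, beside 10.2%, and none rose. PUF6 (YDR496C, chrIV:1441433-1443403, minus strand), a Pumilio-family protein of early pre-60S particles that also represses ASH1 mRNA, had RNA of 167 and 156 CPM in ∆ntd with urea, 113 and 127 CPM in ∆ntd without urea, 133 and 129 CPM in WT with urea and 105 and 104 CPM in WT without urea. Its footprints were 87 and 80.1 CPM in ∆ntd with urea, 121 and 125 CPM in ∆ntd without urea, 97.4 and 98.9 CPM in WT with urea and 91 and 88.6 CPM in WT without urea. TE was 0.521 and 0.513 in ∆ntd with urea, 1.07 and 0.985 in ∆ntd cultures without urea, 0.73 and 0.764 in WT cultures with urea and 0.869 and 0.852 in WT without urea. With urea in ∆ntd, RNA rose by 0.44 ± 0.09 (SE, adjusted p = 5.15e-04) and TE changed by -0.99 ± 0.12 (SE, adjusted p = 8.66e-04), both called in all 8 left-out fits, and the 2 ∆ntd cultures with urea agreed closely. The difference between strains in the footprint response to urea was -0.68 ± 0.14 (SE, adjusted p = 0.0306), which was lost without any 1 of the 6 cultures other than ∆ntd with urea.

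NOP7 (YGR103W, chrVII:695417-697234, plus strand), the partner of ERB1 and YTM1 in 60S assembly, had footprints of 114 and 144 CPM in ∆ntd with urea, 178 and 186 CPM in ∆ntd without urea, 148 and 181 CPM in WT with urea and 133 and 130 CPM in WT without urea. TE was 0.447 and 0.501 in ∆ntd with urea, 0.755 and 0.784 in ∆ntd cultures without urea, 0.636 and 0.698 in WT cultures with urea and 0.676 and 0.669 in WT without urea, a change with urea in ∆ntd of -0.70 ± 0.17 (SE, adjusted p = 0.0182). That call was lost without either ∆ntd culture without urea. NOP15, an RNA-binding protein of pre-60S particles, had a TE of 0.579 and 0.509 in ∆ntd with urea, 0.969 and 1 in ∆ntd cultures without urea, 0.768 and 0.791 in WT cultures with urea and 1.12 and 1.11 in WT without urea (-0.85 ± 0.15 SE, adjusted p = 0.00429 for urea in ∆ntd), and in WT its TE was also lower with urea in both cultures, a change of -0.52 that did not pass (adjusted p = 0.216). Its call in ∆ntd was likewise lost without either ∆ntd culture without urea.

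NOP13 (YNL175C, chrXIV:307401-308612, minus strand), an RNA-binding protein of pre-60S particles, had RNA of 102 and 108 CPM in ∆ntd with urea, 130 and 126 CPM in ∆ntd without urea, 91 and 91.5 CPM in WT with urea and 84.3 and 78.7 CPM in WT without urea. It was higher in ∆ntd than in WT without urea (0.65 ± 0.10 SE, adjusted p = 2.77e-06) and was the one member whose RNA fell with urea in ∆ntd (-0.28 ± 0.10 SE, adjusted p = 0.0329), a call lost without any 1 of the 4 ∆ntd cultures. Of the other 60S factors in the list fixed for description, NOP2, the 25S rRNA methyltransferase, rose in RNA with urea in ∆ntd (0.26 ± 0.10 SE, adjusted p = 0.0452), a call lost without either WT culture without urea, either ∆ntd culture without urea or ∆ntd culture 2 with urea. NOP53, which brings the exosome to pre-60S particles, had higher RNA in ∆ntd than in WT without urea (0.38 ± 0.13 SE, adjusted p = 0.0215) and with urea (0.35 ± 0.12 SE, adjusted p = 0.0189), and the calls were lost without either WT culture of the medium or ∆ntd culture 1 of it. RLP24, a placeholder for the ribosomal protein Rpl24, passed in no comparison, with a TE of 1.12 and 1.3 in ∆ntd with urea, 1.41 and 1.46 in ∆ntd cultures without urea, 1.21 and 1.11 in WT cultures with urea and 1.67 and 1.13 in WT without urea. The largest strain differences in RNA without urea in this group were those of the methyltransferase RRP8 (0.67 ± 0.13 SE, adjusted p = 1.05e-04), NOP13 and NOP15 (0.61 ± 0.12 SE, adjusted p = 8.57e-05).

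Among the 7 exosome subunits, RRP6 (YOR001W, chrXV:326832-329033, plus strand), the nuclear exonuclease, had RNA of 159 and 132 CPM in ∆ntd with urea, 102 and 104 CPM in ∆ntd without urea, 112 and 103 CPM in WT with urea and 101 and 99.3 CPM in WT without urea, so that only ∆ntd with urea stood apart (0.50 ± 0.10 SE, adjusted p = 3.16e-04 for urea in ∆ntd, in all 8 left-out fits). TE of RRP6 was 0.383 and 0.334 in ∆ntd with urea, 0.668 and 0.679 in ∆ntd cultures without urea, 0.551 and 0.597 in WT cultures with urea and 0.537 and 0.532 in WT without urea, and its change of -0.89 ± 0.19 (SE, adjusted p = 0.0108) with urea in ∆ntd was lost without either ∆ntd culture without urea. RRP42, a subunit of the RNase PH-like ring, had RNA of 84.3 and 91.7 CPM in ∆ntd with urea, 53.9 and 52.7 CPM in ∆ntd without urea, 52.2 and 47.4 CPM in WT with urea and 38.5 and 37.3 CPM in WT without urea, with footprints higher in ∆ntd than in WT with urea (0.58 ± 0.12 SE, adjusted p = 0.00871), a call lost without WT culture 1 with urea.

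The cap subunits RRP4 and RRP40 had no footprint call with urea in ∆ntd and were both higher in ∆ntd than in WT with urea. RRP4 (YHR069C, chrVIII:233579-234658, minus strand) had footprints of 67.6 and 75 CPM in ∆ntd with urea, 63 and 66.7 CPM in ∆ntd without urea, 39.4 and 37.9 CPM in WT with urea and 49.3 and 46.3 CPM in WT without urea, and the strain difference with urea was 0.88 ± 0.12 (SE, adjusted p = 0.00125), in all 8 left-out fits and all 7 other settings. RRP40 had footprints of 46.4 and 52 CPM in ∆ntd with urea, 33.2 and 41.3 CPM in ∆ntd without urea, 30.1 and 30.3 CPM in WT with urea and 30.1 and 29.9 CPM in WT without urea. Its TE was 1.07 and 1.15 in ∆ntd with urea and 0.684 and 0.72 in ∆ntd without urea (0.64 ± 0.19 SE, adjusted p = 0.0458), a rise called in only 1 of the 8 left-out fits, that without ∆ntd culture 1 with urea, and in 1 of 7 other settings. RRP43 and RRP4 had higher RNA in ∆ntd than in WT without urea, and RRP45 and RRP46 passed in no comparison.

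Coding length varied from 177 nt (NOP10) to 7482 nt (UTP20) and went with both TE and its changes. Across the 65 members, which share libraries and so are not independent, Pearson's r of log2 length with log2 TE in WT without urea was -0.701 (-0.433 over all genes). With the log2 TE change it was -0.345 for urea in ∆ntd and 0.468 for urea in WT (-0.0824 and 0.324 over all genes), -0.395 for ∆ntd against WT with urea (-0.252) and -0.534 for the difference of responses (-0.27). Without the shortest and the 4 longest members, 60 members of 591 to 3687 nt, these were -0.275, 0.366, -0.249 and -0.428. The 10 shortest members (177 to 753 nt) had a median log2 TE change of -0.24 with urea in ∆ntd and -0.34 with urea in WT, where all 10 were negative in sign. The 10 longest (2331 to 7482 nt) had medians of -0.53 in ∆ntd and 0.01 in WT. In footprints the 10 longest had a median log2 change of 0.24 with urea in WT, and the 10 shortest one of -0.14. No test was made of these differences by length.

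**Figure D5:**
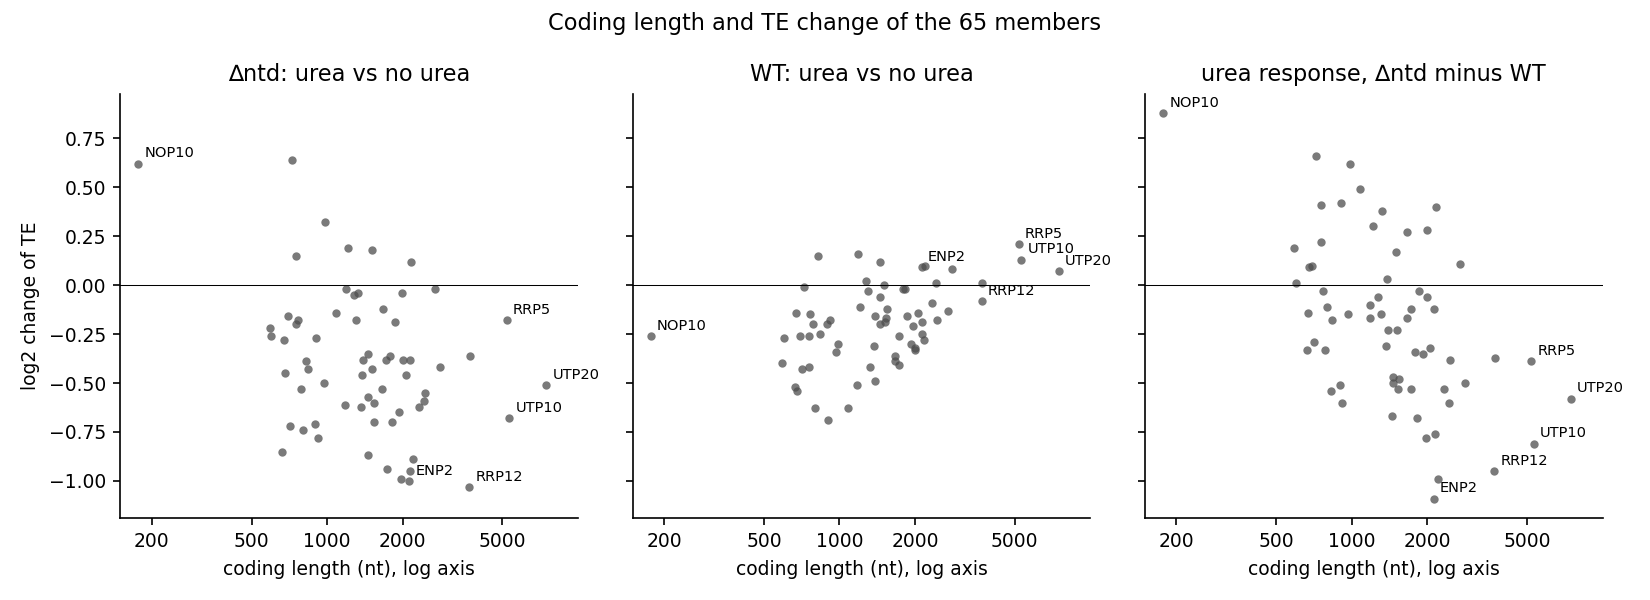
Log2 TE change against coding length (nt, log axis) for the 65 members, 1 point each, for urea in ∆ntd, urea in WT and the difference between these responses (∆ntd minus WT). The 10 longest members range from -1.03 to -0.02 in ∆ntd (median -0.53) and from -0.18 to 0.21 in WT (median 0.01). Across the members r = -0.345, 0.468 and -0.534 in the order of the panels.

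By promoter element, the 54 members with PAC had a median RNA change of 0.3 in ∆ntd against WT without urea, with 30 rises and 1 fall called, and the 11 without PAC a median of 0.37, with 6 rises and 0 falls. Of all genes 17.5% were called up there. With urea in WT 27 with PAC (median 0.26) and 3 without (0.21) rose, beside 16.1% of all genes. With urea in ∆ntd 11 (0.18) and 6 (0.28) rose, beside 13.4%. In ∆ntd against WT with urea 20 (0.22) and 7 (0.35) were higher, beside 21.5%. No test of these differences was made.

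Other genes of the pathway, 106 listed (subunits of RNA polymerase I, other 40S and 60S assembly factors, other snoRNP proteins and exosome subunits) and 105 tested, were followed for comparison. Their RNA rose in 65 (61.9%) and fell in 1 with urea in WT, beside 16.1% of all genes called up, and rose in 34 (32.4%) and fell in 2 with urea in ∆ntd, beside 13.4%. Between the strains it was higher in ∆ntd in 42 (40%) and lower in 1 without urea, beside 17.5%, and higher in 37 (35.2%) and lower in 4 with urea, beside 21.5%. Their TE fell in 38 (36.2%) and rose in 0 with urea in ∆ntd, beside 4.27% of all genes called down. In ∆ntd against WT with urea it was lower in 12 (11.4%), near the 10.2% of all genes, and higher in 5 (4.76%), beside 15.1%, and with urea in WT 0 were called. The median log2 TE change with urea in ∆ntd was -0.45, beside -0.42 in the members. The largest TE falls there were those of LRP1, a cofactor of RRP6 (-1.12 ± 0.29 SE, adjusted p = 0.0262), and IPI3, a 60S factor of the Rix1 complex (-1.06 ± 0.17 SE, adjusted p = 0.0027). ERB1, the partner of NOP7, changed by -0.78 ± 0.12 (SE, adjusted p = 0.00216) in TE and 0.23 ± 0.08 (SE, adjusted p = 0.0388) in RNA. In ∆ntd against WT with urea the largest TE rise was that of GAR1, a core protein of H/ACA snoRNPs like NOP10 (1.11 ± 0.20 SE, adjusted p = 0.0012). ERB1 was named after its values were seen, because NOP7 binds it.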

How the data were processed

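Each of 8 cultures gave 1 extract for both RNAseq and Riboseq, with 2 cultures in each of 4 groups taken from GEO's labels (∆ntd or WT, with or without 3% urea). Cells were collected by vacuum filtration and lysed frozen with cycloheximide in the buffer, and monosome footprints of 25 to 35 nt and RNA fragments of 40 to 60 nt were sequenced without molecular identifiers being named. Per the submitters' processing notes and the methods, the authors trimmed linkers with cutadapt 1.1, removed rRNA and other non-coding RNA reads and aligned the rest to the SGD transcriptome (sacCer3) with Bowtie 1.1 and 0.1.3. They deposited whole-number counts of uniquely mapped reads per gene, with no normalization. Unique mapping discards reads shared with other genes, but at most 0.42% of the 28-nt windows of any member's coding sequence occur in another gene. The table also holds the authors' DESeq2 fold changes and false discovery rates, which were not used.

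From these counts, genes were kept by edgeR's filterByExpr in each assay (5486 in RNAseq, 5286 in Riboseq and 5251 in both) and scaled by TMM within each assay. edgeR 4.0.16 (R 4.3.3, prior count 0.125) fitted all 4 groups of an assay together, and TE changes are the footprint change minus the RNA change in 1 fit of all 16 libraries. Each gene had a quasi-likelihood test with Benjamini-Hochberg adjustment over all genes tested, at a threshold of 0.05. Standard errors come from the fold change and the F statistic. With 2 cultures a group, an exact permutation test cannot go below 0.333. The p-values set a change against the spread between cultures, which the fit shares over all 4 groups. The fits were tested on simulated counts with known changes and the same spread in every group. The simulation therefore does not cover the wider spread of the ∆ntd Riboseq libraries with urea. RNAseq and Riboseq libraries of 1 number share an extract, so the culture was a block in a paired TE fit, although deviations from the group means correlated by only -0.0263 to 0.0285. Alternatives were DESeq2 1.42.0, other scalings, no filter, only the groups compared, a variance per group (limma 3.58.1), replicate blocks and leaving out each culture.

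All 65 members matched the RefSeq copy of R64 by systematic name, as did 6008 of 6692 genes; motif shares are over 5987 genes with a 250-base window. Members, role lists, promoter motifs and other pathway genes were chosen with earlier results of these data known. Named genes are a fixed set of 16 members, the 3 largest called rises and falls of each comparison with groups that do not overlap, the 3 highest and lowest members by level and TE, and the largest called changes of other pathway genes. A member named outside this rule, where a count or a role is described, was chosen after its values were seen.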

Additional observations from a re-analysis of the deposited data

Results flagged for a closer look

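Members are given here because the interaction test found their urea response to differ between ∆ntd and WT. All 9 differences were below 0 (log2 response with urea in ∆ntd minus that in WT). In footprints these were RRP12 (-1.21 ± 0.15 SE, adjusted p = 0.00829), ENP2 (-1.18 ± 0.16 SE, adjusted p = 0.0129), UTP10 (-0.84 ± 0.14 SE, adjusted p = 0.0211), NOP7 (-0.82 ± 0.20 SE, adjusted p = 0.0466), UTP20 (-0.80 ± 0.16 SE, adjusted p = 0.0299) and PUF6 (-0.68 ± 0.14 SE, adjusted p = 0.0306). In TE they were ENP2 (-1.09 ± 0.20 SE, adjusted p = 0.0286) and RRP12 (-0.95 ± 0.16 SE, adjusted p = 0.0286), with an adjusted p of 0.0798 for both when the culture was a block. In RNA it was NOP13 (-0.45 ± 0.14 SE, adjusted p = 0.0364). Each of the footprint and TE differences was lost without any 1 of the 6 cultures other than ∆ntd with urea, and the RNA difference of NOP13 without any 1 of the 8. Footprints of RRP12, ENP2, UTP10, NOP7, UTP20 and PUF6 were lower with urea in both ∆ntd cultures and higher with urea in both WT cultures. With groups of 2 cultures no single culture could be tested as an outlier. The part of the wide spread between the ∆ntd Riboseq libraries with urea (biological coefficient of variation 0.241) in these calls was not tested.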

How the results depend on the processing

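Counts are members called, up and down, and the cause of a change was not tested unless given. The shares of all genes called under these settings are not given. DESeq2 called 14 and 0 in RNA for urea in WT, 9 and 0 for urea in ∆ntd, 21 and 1 (22) for ∆ntd against WT without urea, 14 and 3 (17) with urea and 0 for the difference of responses. In footprints it called 4 for urea in WT, 16 for ∆ntd against WT without urea and 10 for the difference, and in TE 1 for ∆ntd against WT without urea and 5 for the difference. RLE size factors gave 1 TE call for ∆ntd against WT without urea, as did no filter on low counts, which also gave 3 RNA calls for the difference. Library totals in place of TMM, which shift the median of all genes, gave 15 RNA calls for urea in WT, 11 for urea in ∆ntd, 62 for ∆ntd against WT without urea and 60 with urea. They gave 0 footprint calls for urea in WT, 48 for urea in ∆ntd and 11 for the difference, and 43 TE calls for urea in ∆ntd, 48 for ∆ntd against WT with urea, 7 for the difference and 3 for ∆ntd against WT without urea. The members' medians were then 0.14 (RNA, urea in WT), 0.60 and 0.56 (RNA, ∆ntd against WT without and with urea), -0.06, -0.71, -0.23 and -0.62 (footprints, urea in WT, urea in ∆ntd, the strains with urea and the difference) and -0.77, -0.18, -0.80 and -0.56 (TE, urea in ∆ntd, the strains without and with urea and the difference). Set against the median of all genes they were 0.26, 0.29, 0.21, 0.07, -0.28, 0.02, -0.34, -0.46, 0.06, -0.25 and -0.26 in that order.

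With only the groups compared in the fit, footprint calls were 14, 1, 56 and 4 for urea in WT, urea in ∆ntd and the strains without and with urea, and TE calls were 4, 2, 11 and 6. The difference of responses uses all groups, so this setting gives it no value. With a variance per group they were 13, 6, 50 and 5 in footprints and 4, 12, 11 and 8 in TE, with 5 for the TE difference. With the replicate block they were 3 for ∆ntd against WT without urea and 3 for the difference in footprints, and 1 and 0 in TE, where the culture was the block. Replicate numbers did not pair cultures across groups (correlations of deviations -0.0263 to 0.0413 in RNAseq and -0.358 to 0.0631 in Riboseq), and the block changed no count of RNA calls by over 1.5 times.

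Without 1 culture, counts ranged from 19 to 32, 11 to 21, 26 to 37, 21 to 33 and 0 to 2 in RNA (urea in WT, urea in ∆ntd, the strains without urea, the strains with urea and the difference), 0 to 16, 1 to 45, 0 to 51, 4 to 36 and 0 to 36 in footprints and 0 to 4, 2 to 38, 0 to 12, 5 to 38 and 0 to 28 in TE. The highest footprint and TE counts came without a ∆ntd culture with urea. In those fits the spread of that group rests on the other groups, and its part in these counts was not tested. The members' medians ranged from -0.35 to -0.24 for the footprint difference, -0.26 to -0.13 for TE with urea in WT, -0.29 to -0.21 for TE of the strains with urea and -0.30 to -0.18 for the TE difference. Over single members, 7423 values kept direction and side of the threshold, 472 gained a call, 524 lost one and 17 changed sign. With library totals these were NOP2 (0.25) and NOP56 (0.25) in RNA of ∆ntd against WT without urea, NOP56 (0.04), RRP5 (0.03) and UTP20 (0.29) in RNA with urea, NOP2 (-0.39), RRP3 (-0.01) and RRP5 (-0.41) in footprints with urea in ∆ntd, and RLP24 (-0.53), RRP4 (-0.07), RRP5 (-0.58) and UTP6 (-0.01) in TE of ∆ntd against WT with urea. Without ∆ntd culture 1 with urea they were footprints of NOP13 with urea in ∆ntd (0.26, against -0.52 without culture 2) and of UTP15 in ∆ntd against WT with urea (-0.53, against 0.37). Without ∆ntd culture 2 with urea they were footprints of RRP5 with urea in ∆ntd (-0.29, against 0.32 without culture 1) and of NOP13 in ∆ntd against WT with urea (-0.41, against 0.37), and TE of RRP5 there (-0.38, against 0.34). The lowest member count in a library was 38 footprints and 49 reads, which limits the precision there.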
